A study of Homo sapiens with 43 samples.

Results

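The 8 WNT ligand genes WNT5A, WNT5B, WNT3, WNT4, WNT7A, WNT7B, WNT10A and WNT10B and the 2 secretion genes WLS and PORCN were followed by RNA sequencing in H2087 and HCC1954 cells. They are 10 of 18085 genes in the H2087 tables and of 25369 in the HCC1954 tables, taken by symbol, and a member whose mean over all libraries of a line was under 10 normalised read counts was not measured in that line. By this rule 7 members were measured in H2087 and 9 in HCC1954. H2087 is labelled an established lung cancer line and HCC1954 an established breast cancer line, and no genetic change is given for either. Each line was grown as parental cells and as latency-competent derivatives (LCC), which the labels describe as isolated from organs scored BLI-negative. Both kinds of cell were kept below confluence for 48 h in a medium rich in mitogens (mitogen-rich, MRM) or one low in them (mitogen-low, MLM). For H2087 there are, per medium, 2 libraries of parental cells and 6 of derivatives, named LCC1 to LCC6 and sequenced once each, so a derivative and its library cannot be told apart. In HCC1954 each medium holds 3 parental libraries and 4 LCC libraries, 2 from LCC1 and 2 from LCC2. Not analysed here were H2087 parental library 3 in MLM and 12 samples of chromatin. The comparisons ask which members differ between LCC and parental cells in each medium, and between the media in each kind of cell.

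WNT proteins are secreted signals that carry a fatty acid, without which they neither leave the cell nor bind their receptors. PORCN attaches that fatty acid in the endoplasmic reticulum, and WLS carries the lipidated ligand from the Golgi to the cell surface. Some ligands, such as WNT3 and WNT10B, are known for stabilising beta-catenin through Frizzled and LRP receptors, while WNT5A and WNT5B are known mainly for signalling through ROR, RYK and Frizzled receptors without it. A cell can therefore change its WNT output through single ligands or through the shared secretion genes.

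Reads assigned to genes are given in M (mega, SI prefix) per library. H2087 libraries were deeper in MLM (44.6 M to 55.7 M) than in MRM (12.1 M to 20.8 M), and HCC1954 libraries were shallower in MLM (24.9 M to 28.1 M against 28.8 M to 44.7 M), so depth and medium cannot be told apart. All 6 epithelial markers had means of at least 10 in every group. The 6 markers of ERBB2 and breast identity summed to between 221748 and 476716 normalised read counts per HCC1954 library. In H2087 5 of these 6 also reached a mean of 10 in every group, with sums of 15614 to 67479. Of 6 lung identity markers NKX2-1 was not among the genes given. Of this list 3 or 4 reached a mean of 10 in H2087, with sums of 139.7 to 5020, and 1 or 2 in HCC1954. The summed epithelial markers were lower in HCC1954 LCC libraries (102445 to 179911) than in parental ones (274814 to 308331), while the summed fibroblast markers were higher (778.2 to 1116 against 465.7 to 639.8) and so were the blood markers (21.3 to 90.3 against 10.3 to 17.0). The blood markers were also higher in the 2 H2087 parental MRM libraries (96.5 and 99.3) than in the other H2087 libraries (12.4 to 47.0). With the medium, H2087 parental fibroblast markers were at 301.7 to 347.5 in MLM and 645.2 to 659.5 in MRM, and lung identity markers at 270.4 to 277.5 and 3592 to 3952. The blood, fibroblast, endothelial and kidney lists had 0 to 2, 1 to 3, 1 to 5 and 1 to 3 of 6 markers at a mean of 10 or more in a group. The part of these differences in the results was not tested. Libraries stood apart in HCC1954: in MLM parental library 3 differed from parental libraries 1 and 2 by 62.9 and 63.1 chi-square units per gene, against 7.57 between those, and in MRM both LCC1 libraries differed from each other by 115, against 2.10 between the LCC2 libraries. In MRM LCC1 library 2 lay further from the LCC2 libraries (208 and 229) than LCC1 library 1 did (113 and 128). Calls that parental library 3 in MLM or the LCC1 libraries in MRM change are given with and without them. In bulk RNA, fewer cells that express a gene and less RNA per cell cannot be told apart, and the labels do not state whether replicate libraries come from separate cultures, so p-values measure the spread between these libraries only.

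The promoters of the members with the largest differences are shown as the 250 bases before each start annotated by RefSeq on GRCh38.p14, so that the sequence can be read beside the values. Capitals mark matches, on either strand, to any of 5 motifs: CTTTGA (the core bound by TCF/LEF factors, which act with beta-catenin), TGANTCA (the AP-1 site), GGGCGG (the GC box), TATAAA (the TATA box) and CACGTG (an E-box). A match to CTTTGA and a match to TGANTCA can share their TGA. The table gave 12 promoters for 8 members, and WNT7B and WNT10B were not matched. WNT5A has an upstream start (chr3:55487307-55487556, minus strand) and a downstream start (chr3:55481399-55481648, minus strand).
WNT5A upstream start: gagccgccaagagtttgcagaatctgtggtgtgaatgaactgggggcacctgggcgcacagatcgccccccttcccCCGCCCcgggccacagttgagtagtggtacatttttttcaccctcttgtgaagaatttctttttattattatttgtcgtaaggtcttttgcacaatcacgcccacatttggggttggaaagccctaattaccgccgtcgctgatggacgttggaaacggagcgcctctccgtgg
WNT5A downstream start: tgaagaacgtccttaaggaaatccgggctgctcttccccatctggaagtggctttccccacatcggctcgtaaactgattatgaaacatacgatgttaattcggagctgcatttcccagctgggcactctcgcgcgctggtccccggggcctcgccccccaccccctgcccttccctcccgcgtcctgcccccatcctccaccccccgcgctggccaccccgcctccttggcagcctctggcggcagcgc
WNT5B also has an upstream start (chr12:1616806-1617055, plus strand) and a downstream start (chr12:1628981-1629230, plus strand).
WNT5B upstream start: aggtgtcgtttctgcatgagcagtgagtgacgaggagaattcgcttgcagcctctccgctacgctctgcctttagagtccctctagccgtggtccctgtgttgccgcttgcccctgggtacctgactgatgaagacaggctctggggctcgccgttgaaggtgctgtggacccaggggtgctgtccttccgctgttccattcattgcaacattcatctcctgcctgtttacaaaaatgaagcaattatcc
WNT5B downstream start: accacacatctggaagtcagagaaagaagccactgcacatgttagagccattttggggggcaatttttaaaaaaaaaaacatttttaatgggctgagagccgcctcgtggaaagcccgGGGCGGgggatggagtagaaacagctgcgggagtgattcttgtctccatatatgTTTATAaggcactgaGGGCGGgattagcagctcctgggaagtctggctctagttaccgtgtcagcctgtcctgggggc
The remaining promoters shown are those of WNT10A (chr2:218880602-218880851, plus strand) and WLS (chr1:68232547-68232796, minus strand).
WNT10A: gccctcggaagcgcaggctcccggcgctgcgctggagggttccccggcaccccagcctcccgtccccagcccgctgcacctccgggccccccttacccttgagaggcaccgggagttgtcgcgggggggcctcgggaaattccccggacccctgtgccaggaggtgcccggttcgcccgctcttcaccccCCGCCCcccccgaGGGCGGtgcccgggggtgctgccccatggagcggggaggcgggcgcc
WLS: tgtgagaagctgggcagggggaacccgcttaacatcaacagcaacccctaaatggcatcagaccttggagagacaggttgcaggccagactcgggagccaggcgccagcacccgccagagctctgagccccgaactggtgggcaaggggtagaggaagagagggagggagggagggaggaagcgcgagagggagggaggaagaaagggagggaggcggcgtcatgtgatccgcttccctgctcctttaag
The GC box was in 7 of the 12 member promoters and in 42.6% of 35116 promoters cut to the same length. The TATA box was in 1 of 12, the downstream WNT5B promoter, and in 10.7% of all promoters. The TCF/LEF core was in 1 of 12, a PORCN promoter, and in 11.2% of all, while the AP-1 site and the E-box were in 0 of 12, and in 6.57% and 6.345% of all. These matches describe letters in a window and say nothing of binding.

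In HCC1954 the LCC cells held far less WNT5A and WLS RNA than the parental cells and more WNT10A RNA, in both media. WNT7B was also lower in both media and PORCN slightly higher. Of the 9 measured members, 2 rose and 4 fell in MLM, where 35.9% of all genes tested were called, and 4 rose and 3 fell in MRM, where 38.7% were called. The median difference over the measured members was 0.145 in MLM and 0.313 in MRM, against 0 and -0.003 over all genes tested. A gene was called at an adjusted p under 0.05 from limma, and all differences are log2 of the value plus 1, LCC minus parental, with their standard error.

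WNT5A fell the most of the members in both media. In MLM the 3 parental libraries held 1823, 1611 and 1377 normalised read counts and the 4 LCC libraries 115, 135, 195 and 198. In MRM the parental libraries held 2463, 2465 and 2558 and the LCC libraries 296, 155, 180 and 175. Every LCC library lay far below every parental library, and the difference was -3.34 ± 0.22 in MLM (adjusted p = 0.000137) and -3.67 ± 0.22 in MRM (adjusted p = 6.69e-05). The lncRNA gene WNT5A-AS1 overlaps WNT5A in the RefSeq annotation, and whether the counting used strand is not given in the sources used here.

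WLS, the carrier that every lipidated WNT needs to reach the surface, was lower in the same cells. In MLM the parental libraries held 5162, 5410 and 3783 and the LCC libraries 868, 809, 1378 and 1352. In MRM the parental libraries held 2425, 2413 and 2421 and the LCC libraries 1043, 1141, 1101 and 1112. The groups did not overlap, and the 7 MRM libraries varied little within each group. The difference was -2.14 ± 0.24 in MLM (adjusted p = 0.000702) and -1.14 ± 0.07 in MRM (adjusted p = 8.65e-05). Both calls held with each derivative counted as 1 replicate. Over the alternatives that kept every library, adjusted p was at most 0.00958 in MLM and 0.000902 in MRM.

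PORCN, the other secretion gene, differed in the opposite direction and by less. In MLM the parental libraries held 462, 470 and 366 and the LCC libraries 608, 604, 625 and 634, a difference of 0.52 ± 0.12 (adjusted p = 0.0128). In MRM the parental libraries held 379, 380 and 339 and the LCC libraries 584, 474, 448 and 435, a difference of 0.40 ± 0.13 (adjusted p = 0.0484). The groups did not overlap in either medium, but the MRM call was lost in 5 of 7 fits that left out 1 library (0.30 to 0.45, adjusted p from 0.0427 to 0.169). With each derivative counted as 1 replicate the PORCN call was lost in both media (adjusted p = 0.0991 in MLM and 0.0582 in MRM).

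WNT10A, a ligand known from hair, tooth and other epithelial appendages, was higher in LCC cells at a low level. In MLM the parental libraries held 31.1, 26.7 and 18.3 and the LCC libraries 130, 101, 83.5 and 75.0. The MRM values were 15.2, 17.2 and 8.97 in parental and 70.9, 61.7, 74.2 and 72.3 in LCC libraries. The groups were well separated, with differences of 1.90 ± 0.27 in MLM (adjusted p = 0.00199) and 2.30 ± 0.25 in MRM (adjusted p = 0.000587). The call held in every fit that left out 1 library, and with each derivative counted as 1 replicate. Over the alternatives that kept every library, adjusted p was at most 0.0231 in MLM and 0.00512 in MRM. WNT6 overlaps WNT10A in the RefSeq annotation and held more reads, 266 to 1438 in the HCC1954 LCC libraries and 302.5 to 812 in the parental ones in MLM, and 71.1 to 962 and 167 to 196 in MRM, so the WNT10A value is uncertain where the counting could have split shared reads.

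WNT7B, a ligand best known from lung and kidney development, fell in both media. In MLM the parental libraries held 6897, 7255 and 6200 and the LCC libraries 4061, 3652, 2476 and 2624, a difference of -1.11 ± 0.19 (adjusted p = 0.00381). The MRM values were 4489, 4451 and 4102 in parental and 3424, 2524, 2129 and 2105 in LCC libraries, a difference of -0.80 ± 0.17 (adjusted p = 0.00976). No LCC library reached a parental one, and the LCC1 libraries lay above the LCC2 libraries in both media. Both calls held with each derivative counted as 1 replicate. Over the alternatives that kept every library, adjusted p was at most 0.0213 in MLM and 0.0212 in MRM.

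WNT4, which drives side branching in the breast, was called in MLM and not in MRM. The MLM parental libraries held 558, 667 and 222 and the LCC libraries 185, 177, 194 and 178, a difference of -1.24 ± 0.35 (adjusted p = 0.0295). Parental library 3, which stood apart across all genes, lay just above the LCC libraries. Without it the difference was -1.73 (adjusted p = 0.000621), but the call was lost when any of the other 6 libraries was left out, with differences from -1.27 to -0.93 and adjusted p of up to 0.113. In MRM the parental libraries held 205, 180 and 197 and the LCC libraries 142, 62.5, 146 and 142, a difference of -0.73 ± 0.31 (adjusted p = 0.103). Without the LCC1 library at 62.5 the MRM difference was -0.43 and passed (adjusted p = 0.0145). With each derivative counted as 1 replicate the calls were the other way round, lost in MLM (adjusted p = 0.126) and made in MRM (-0.67, adjusted p = 0.0384). The difference between the LCC effects in MLM and MRM was -0.51 ± 0.50 and did not pass (adjusted p = 0.826).

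WNT5B and WNT10B were called higher in MRM alone. The difference between the LCC effects in MLM and MRM did not pass for either (-1.86 ± 0.87, adjusted p = 0.507 for WNT5B, and -0.62 ± 0.34, adjusted p = 0.61 for WNT10B). WNT5B, the closest relative of WNT5A, held 3.99, 8.62 and 5.52 in the MRM parental libraries and 125, 11.7, 41.0 and 42.6 in the LCC libraries, a difference of 2.61 ± 0.71 (adjusted p = 0.0231). The parental values rest on 5, 9 and 8 reads, and the lowest LCC value on 15. The LCC1 libraries, at 125 and 11.7, were the highest and the lowest of the LCC group, and the difference was 2.07 without the first and 3.18 without the second, both called. The call was lost without parental library 1 (2.39, adjusted p = 0.0863), parental library 2 (2.86, adjusted p = 0.0524) or parental library 3 (2.58, adjusted p = 0.0773). In MLM WNT5B held 59.6, 85.1 and 33.9 in the parental libraries and 154, 109, 57.2 and 82.0 in the LCC libraries, which overlapped (0.75 ± 0.41, adjusted p = 0.199).

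WNT10B, a ligand known for holding back fat cell formation, held 27.2, 26.8 and 36.6 in the MRM parental libraries and 77.1, 49.2, 61.1 and 54.8 in the LCC libraries. The difference was 0.98 ± 0.22 (adjusted p = 0.0121) with no overlap, and the call was lost without parental library 1 (0.91, adjusted p = 0.0582) or parental library 2 (0.90, adjusted p = 0.0575). In MLM it held 47.9, 53.5 and 58.7 in the parental libraries and 50.4, 56.9, 98.3 and 78.0 in the LCC libraries, which overlapped (0.36 ± 0.26, adjusted p = 0.326). WNT3 was called in neither medium (0.15 ± 0.35 in MLM, 0.31 ± 0.49 in MRM), and its values of 35.8 to 148 overlapped between the groups. LRRC37A2 overlaps WNT3 in the annotation and held 28.2 to 89.0 in the HCC1954 libraries, so WNT3 is uncertain in the same way. WNT7A, with a mean of 1.94 and 4 of 14 libraries at 0, was not measured.

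**Figure D1:**
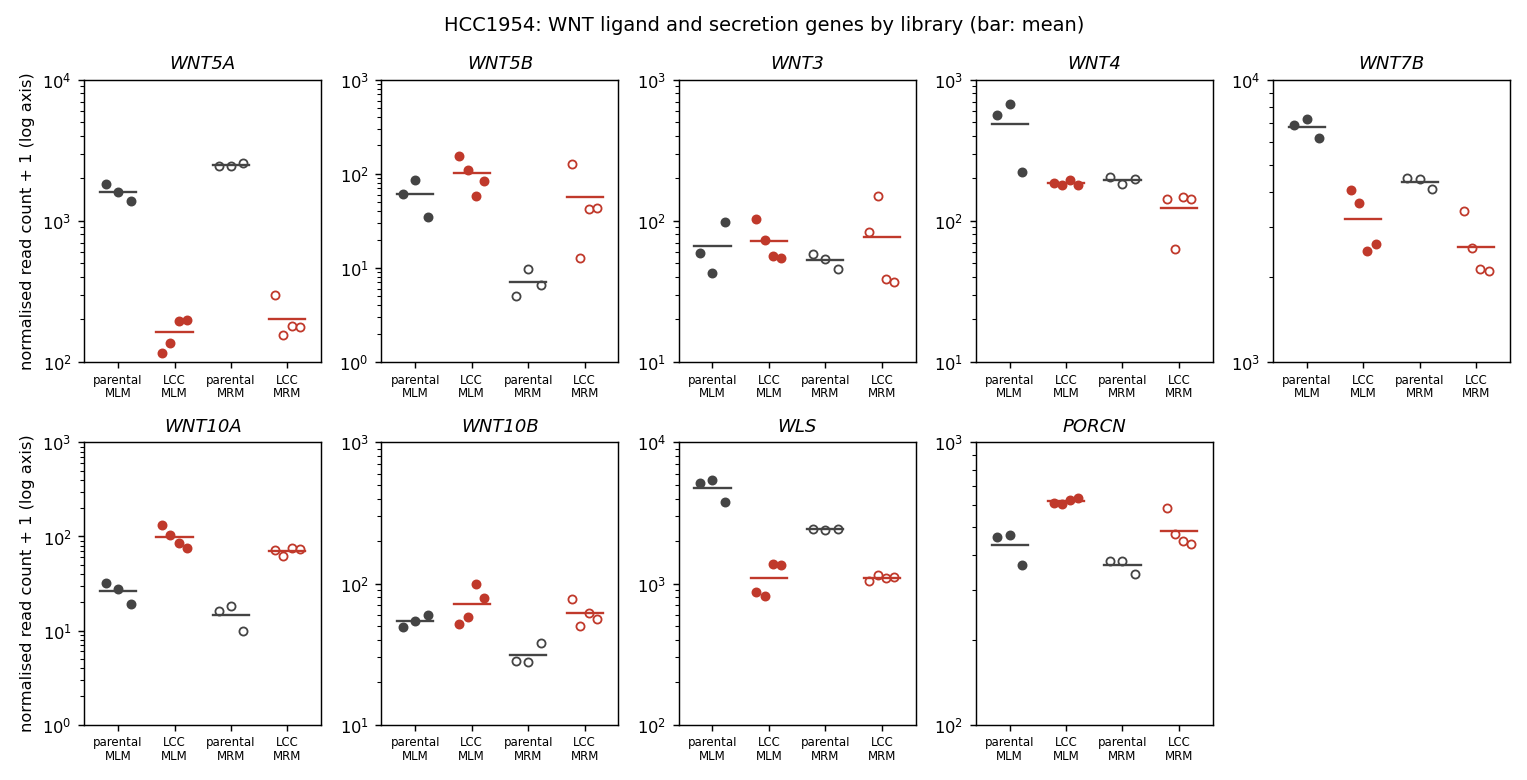
Normalised read count plus 1 (log axis) of the 9 measured members in each HCC1954 library, by cell and medium, with parental libraries in grey, LCC libraries in red, MLM filled and MRM open, and a bar at the group mean. WNT5A falls from between 1377 and 2558 in the parental libraries to between 115 and 296 in the LCC libraries, and WNT10A lies above every parental library in each medium.

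The HCC1954 derivatives LCC1 and LCC2 were compared with each other over both media. Of the 9 members, 1 was higher and 2 were lower in LCC2, where 53.3% of all genes tested were called. WNT3 was lower in LCC2 (-1.11 ± 0.26, adjusted p = 0.00392), with 54.9 and 53.7 in MLM and 37.5 and 35.8 in MRM, against 102, 71.8, 82.2 and 148 in LCC1. WNT7B was also lower (-0.53 ± 0.09, adjusted p = 0.000465). WLS was higher in LCC2 (0.36 ± 0.10, adjusted p = 0.00790), and its values differed between the derivatives in MLM (868 and 809 against 1378 and 1352) while they overlapped in MRM (1043 and 1141 against 1101 and 1112). The 2 MRM LCC1 libraries moved the other members: without the first, WNT5A (0.42, adjusted p = 0.00277) and WNT10B (0.46, adjusted p = 0.0316) were also called and 5 members in all, and without the second WNT5B was called (-1.23, adjusted p = 0.00838).

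The medium moved several members in HCC1954 parental cells. WNT5B, WNT4, WNT7B, WNT10A, WNT10B and WLS were higher in MLM than in MRM, so 6 of 9 members rose and 0 fell, where 24.6% of all genes tested were called. WNT5B rose the most (59.6, 85.1 and 33.9 in MLM against 3.99, 8.62 and 5.52 in MRM), a difference of 3.06 ± 0.66, MLM minus MRM (adjusted p = 0.00581). Its MRM values rest on 5, 9 and 8 reads. WLS rose by 0.97 ± 0.20 (adjusted p = 0.00429). These 2 held their call in each of the 6 fits that left out 1 parental library, whereas WNT4 (1.17 ± 0.38), WNT7B (0.64 ± 0.20), WNT10A (0.85 ± 0.28) and WNT10B (0.81 ± 0.26) lost theirs in 5, 5, 4 and 6 of them, with adjusted p of up to 0.164, 0.117, 0.187 and 0.121. Without parental library 3 in MLM the WNT4 difference was 1.65 (adjusted p = 0.00304) and the WNT10B call was lost (0.74, adjusted p = 0.0931). WNT5A was the member with a lower mean in MLM, and its groups did not overlap, but the difference of -0.65 ± 0.25 did not pass (adjusted p = 0.0729).

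In HCC1954 LCC cells 1 of 9 members was called between the media, where 23.0% of all genes tested were called. PORCN was higher in MLM (0.36 ± 0.11, adjusted p = 0.0388), and the call was lost in 7 of 8 fits that left out 1 LCC library (0.31 to 0.45, adjusted p of up to 0.105). Without LCC1 library 1 in MRM, WNT5B (1.74, adjusted p = 0.0244, against 1.20 and 0.149 with it) and WNT7B (0.48, adjusted p = 0.0462, against 0.33 and 0.201 with it) were called as well. Without LCC1 library 2 in MRM, which stood further apart, no member was called (PORCN 0.35, adjusted p = 0.0582). With the derivative as a block, a fit chosen after seeing the data, 6557 of 15397 genes tested were called, and WNT7B was also called (0.33, adjusted p = 0.0109). It was not called with each derivative counted as 1 replicate (adjusted p = 0.404), where the PORCN call was lost too (adjusted p = 0.240). Over both derivatives WLS did not differ detectably in LCC cells (-0.04 ± 0.17, adjusted p = 0.899), but the derivatives went opposite ways. LCC1 held less in MLM (868 and 809 against 1043 and 1141 in MRM), while LCC2 held more (1378 and 1352 against 1101 and 1112). The medium was not tested within a derivative. The test of the difference between the LCC effects in MLM and MRM called 0 of 9 members, where 0.156% of all genes tested were called. limma gave 1 member an unadjusted p under 0.05, edgeR called 0 members and DESeq2 called 1. That member was WLS, whose difference between the LCC effects was -1.004 ± 0.26 and fell short of the threshold (adjusted p = 0.177). It passed in DESeq2 (-0.98, adjusted p = 0.0291) and with the derivative as a block (adjusted p = 0.0202), where 626 of 15397 genes tested were called. With each derivative counted as 1 replicate it did not pass (adjusted p = 0.530).

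In H2087 LCC cells WNT10B fell in both media and WNT7B rose in MRM, while WLS and PORCN were not called. WNT5B had reads almost only in parental cells in MLM. Of the 7 measured members, 0 rose and 2 fell in MLM, where 13.5% of all genes tested were called, and 1 rose and 1 fell in MRM, where 14.4% were called. Of the 2 in MLM, WNT5B passed the minimum mean through the parental MLM libraries alone, so its call is no support for a difference. The median difference over the measured members was -0.271 in MLM and -0.0853 in MRM, against 0.006 and -0.002 over all genes tested.

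WNT10B was lower in each of the 6 derivatives. In MLM the parental libraries held 440 and 464, and LCC1 to LCC6 held 34.4, 134, 57.0, 88.1, 30.8 and 121. In MRM the parental libraries held 813 and 792, and the same derivatives held 145, 382, 135, 186, 98.6 and 229. No derivative reached a parental library, and LCC2 was the highest and LCC5 the lowest in each medium. The difference was -2.74 ± 0.58 in MLM (adjusted p = 0.0200) and -2.17 ± 0.43 in MRM (adjusted p = 0.0147). With 2 parental libraries the call needs both: it was lost without parental library 1 or 2 in MLM (-2.78 and -2.70, adjusted p = 0.171 and 0.187) and in MRM (-2.15 and -2.19, adjusted p = 0.148 and 0.126).

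WNT5B RNA was found in parental MLM libraries and hardly elsewhere in H2087. The parental MLM libraries held 112 and 107, LCC1 held 3.02 and LCC3 held 0.641, and the other 4 MLM derivatives and all 8 MRM libraries held 0. In MLM that is 425 reads in the parental group and 6 in the LCC group, a pooled ratio of 187 (95% counting interval 85.1 to 512, counting error only). With a line mean of 13.9, WNT5B reached the minimum of 10 only through these 2 parental libraries, so it had to differ and its values are a description with no test. No difference could be given between the cells in MRM.

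WNT7B was higher in the derivatives in MRM. There WNT7B held 1933 and 2198 in the parental libraries and 4169, 4219, 3278, 5361, 3375 and 2910 in LCC1 to LCC6. Every derivative was higher, by 0.88 ± 0.21 (adjusted p = 0.0267), and the call was lost without parental library 1 (0.79, adjusted p = 0.245) or parental library 2 (0.98, adjusted p = 0.142). In MLM the parental libraries held 2050 and 2152 and the derivatives ranged from 1708 over a median of 2485 to 4019, which overlapped (0.23 ± 0.31, adjusted p = 0.674).

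WNT5A ranged widely between the H2087 derivatives. In MLM LCC1 to LCC6 held 299, 600, 421, 115, 25.1 and 9.84, against 189 and 223 in the parental libraries. In MRM the same derivatives held 240, 484, 231, 89.9, 17.9 and 22.2, against 6.33 and 16.5. LCC2 was the highest in both media, and LCC5 and LCC6 were the lowest. The MLM groups overlapped (-0.82 ± 1.49, adjusted p = 0.765), and the MRM difference did not pass (3.16 ± 1.23, adjusted p = 0.120). The MRM parental values rest on 4 and 7 reads, and the lowest derivative, LCC5, on 10. Without parental library 1 the MRM difference was 2.53, and without parental library 2 it was 3.79. DESeq2 called it (4.01, adjusted p = 0.00286).

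WLS, PORCN and WNT3 were called in neither medium between H2087 LCC and parental cells. WLS held 3593 to 5355 in the MLM derivatives against 3553 and 3642 in the parental libraries (0.30 ± 0.13, adjusted p = 0.174), and 5079 to 9554 against 7581 and 7414 in MRM (-0.09 ± 0.19, adjusted p = 0.791). PORCN held 361 to 798 against 421 and 415 in MLM (0.54 ± 0.28, adjusted p = 0.246) and 529 to 744 against 712 and 669 in MRM (-0.17 ± 0.13, adjusted p = 0.420). WNT3 held 30.2 to 45.9 against 47.4 and 40.6 in MLM (-0.27 ± 0.21, adjusted p = 0.443) and 28.7 to 58.7 against 82.2 and 54.4 in MRM (-0.84 ± 0.32, adjusted p = 0.112). Without LCC2, the highest derivative, WNT3 passed in MRM (-0.97, adjusted p = 0.0441), and without LCC4, the lowest, PORCN passed in MLM (0.69, adjusted p = 0.0386). WNT4, WNT7A and WNT10A had line means of 5.51, 0.463 and 7.21 and were not measured.

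**Figure D2:**
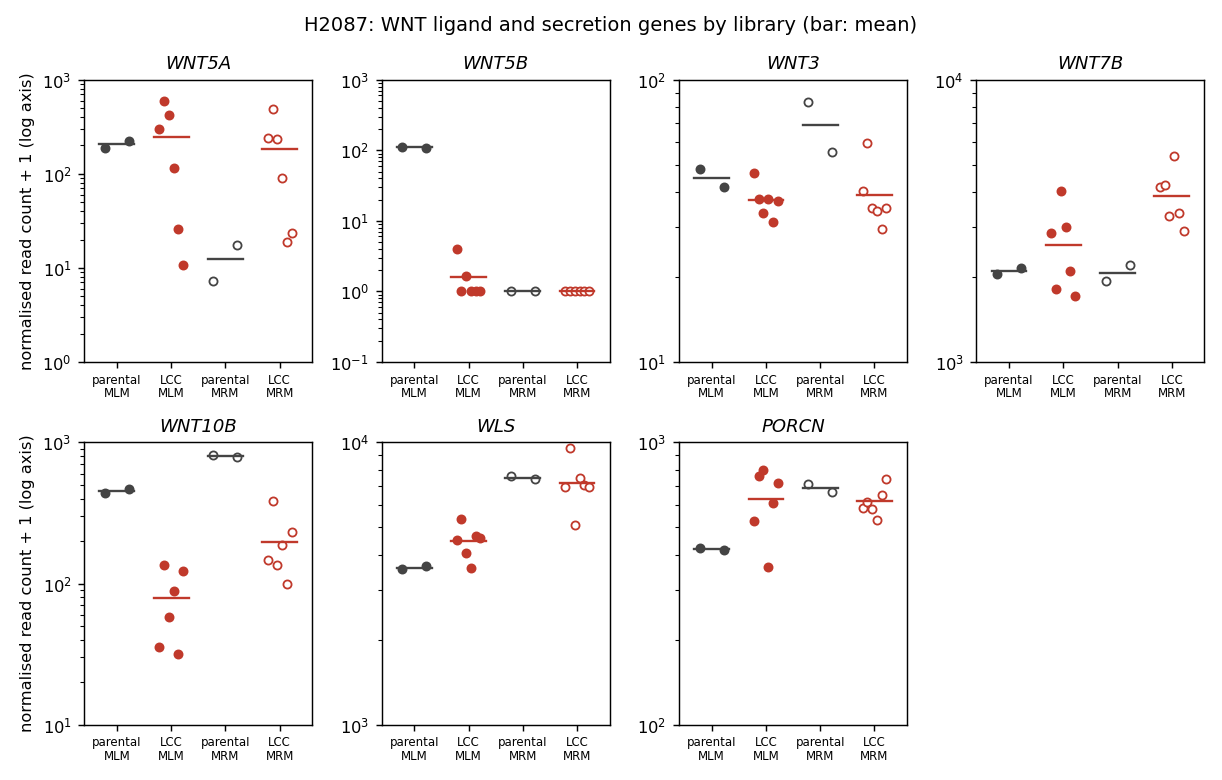
Normalised read count plus 1 (log axis) of the 7 measured members in each H2087 library, by cell and medium, with parental libraries in grey, LCC libraries in red, MLM filled and MRM open, and a bar at the group mean. WNT5B is at 107 and 112 in the parental MLM libraries and at 0 in all MRM libraries, and WNT10B in LCC lies below the parental libraries in both media.

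**Figure D3:**
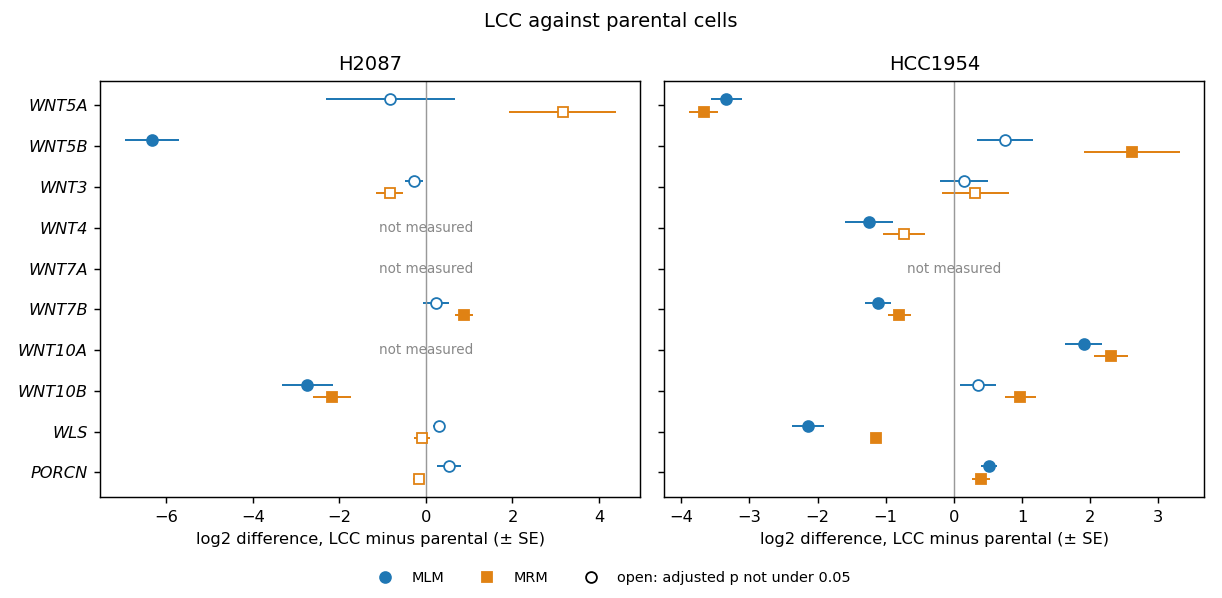
Difference between LCC and parental cells (log2 of the value plus 1, LCC minus parental, ± SE) in MLM (circles) and MRM (squares) for each member in both lines, filled where the adjusted p was under 0.05. WNT5A and WLS lie far to the left in HCC1954, at -3.67 to -1.14, and in H2087 WNT10B does. WNT5B in H2087 MLM also lies far to the left. It passed the minimum mean through the parental MLM libraries alone, so its filled mark is no support for a difference. In H2087 MRM, with 0 reads, WNT5B is not drawn.

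In H2087 the medium moved WLS in both kinds of cell, in the direction opposite to HCC1954 parental cells. Parental WLS was 3553 and 3642 in MLM and 7581 and 7414 in MRM, a difference of -1.06 ± 0.21, MLM minus MRM (adjusted p = 0.00132). In LCC cells WLS was lower in MLM in 6 of 6 derivatives (-0.67 ± 0.12, adjusted p = 0.000595). The 2 lines were normalised separately, so the difference between them was not tested.

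Of the 7 measured members in parental H2087 cells, 1 rose and 1 fell in MLM, where 38.0% of all genes tested were called. The one counted as higher was WNT5B, at least 38.6-fold higher in MLM than in MRM against a floor of 3 reads over the MRM parental group, which is again a description because the parental MLM libraries alone brought it into the test. WNT5A held 189 and 223 in MLM and 6.33 and 16.5 in MRM. Its groups did not overlap, but the shared spread includes the derivatives and the difference of 4.18 ± 1.79 did not pass (adjusted p = 0.0789), though it did in DESeq2 (adjusted p = 0.0248). It ran from 3.55 to 4.81 in the fits that left out 1 parental library. PORCN, at 421 and 415 in MLM and 712 and 669 in MRM, was at -0.72 ± 0.28 (adjusted p = 0.0544) and was called at -0.73 by edgeR (adjusted p = 0.0488) and DESeq2 (adjusted p = 0.0324). WNT10B, at 440 and 464 against 813 and 792, was at -0.83 ± 0.67 (adjusted p = 0.352).

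In H2087 LCC cells 0 of 7 members rose and 3 fell in MLM, where 37.4% of all genes tested were called. Besides WLS these were WNT10B (-1.40 ± 0.38, adjusted p = 0.0102), lower in MLM in 6 of 6 derivatives, and WNT7B (-0.63 ± 0.20, adjusted p = 0.0224), lower in 5 of 6. LCC3 was the derivative in which WNT7B was higher in MLM, at 4019 against 3278. The WNT7B call was lost by a small margin without LCC6 in MLM (-0.52, adjusted p = 0.0502). All 3 calls held with the derivative as a block.

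The test of the difference between the LCC effects in the media called 1 of 7 members in H2087, where 10.7% of all genes tested were called. It was WNT5B, whose fitted value rests on 0 reads in MRM, was called by neither edgeR nor DESeq2 and supports nothing, for the same reason. The derivatives pair the LCC libraries of the media. With the derivative as a block, a fit chosen after seeing the data, 3 members were called, where 3924 of 12535 genes tested were called. WNT5A then passed (-3.98, adjusted p = 0.000295, against 0.239 without the block): its parental libraries were at 189 and 223 in MLM and 6.33 and 16.5 in MRM, while it was higher in MLM in 5 of 6 derivatives. PORCN also passed (0.71, adjusted p = 0.0291, against 0.177 without the block), with 4 of 6 derivatives lower in MLM.

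**Figure D4:**
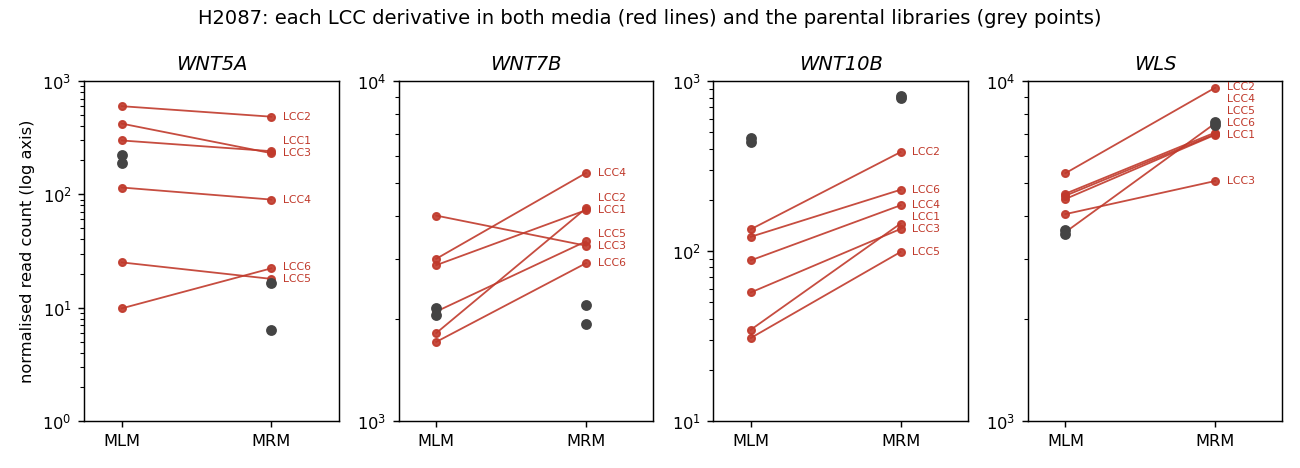
Normalised read count (log axis) of WNT5A, WNT7B, WNT10B and WLS in MLM and MRM for each H2087 derivative (red, joined by a line) and for the parental libraries (grey points, not joined). WNT10B and WLS slope up from MLM to MRM in 6 of 6 derivatives, while WNT5A is higher in MLM in 5 of 6 derivatives, lower in LCC6 (9.84 against 22.2), and spans 9.84 to 600 between derivatives in MLM.

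**Figure D5:**
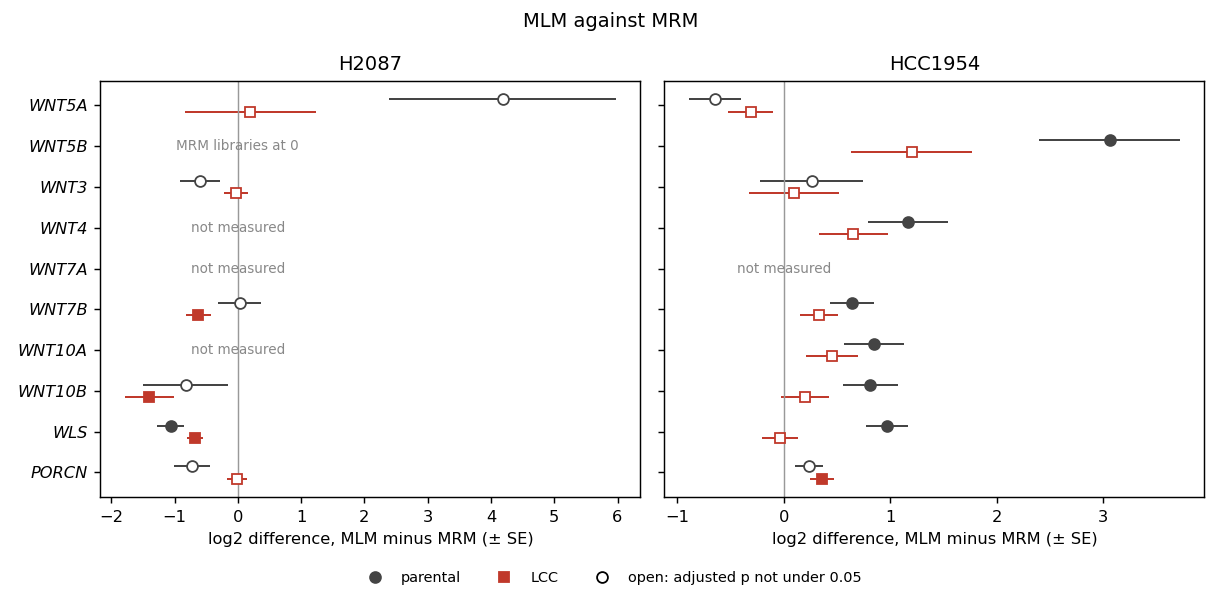
Difference between the media (log2 of the value plus 1, MLM minus MRM, ± SE) in parental cells (circles) and LCC cells (squares) for each member in both lines, filled where the adjusted p was under 0.05. WLS lies at -1.06 and -0.67 in H2087 and at 0.97 and -0.04 in HCC1954, and WNT5B in H2087, with its MRM libraries at 0, is not drawn.

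The other genes of the pathway were counted in lists. In HCC1954 LCC cells against parental cells, 35.9% of all genes were called in MLM (17.4% higher, 18.5% lower) and 38.7% in MRM (19.4% higher, 19.3% lower), and the counts below stand beside these shares with no test. Of 13 carriers and proteoglycans that handle WNT proteins 1 rose and 6 fell in MLM, and 1 rose and 8 fell in MRM (medians of -0.338 and -0.472 against 0 and -0.003 over all genes). The heparan sulfate proteoglycans SDC1 (-1.58 ± 0.23 in MLM, -1.62 ± 0.33 in MRM) and GPC4 (-1.44 ± 0.14 in MLM, -1.63 ± 0.20 in MRM) fell the most among those with a line mean of at least 100. Of 20 cytoplasmic transducers 0 rose and 10 fell in MLM, and 0 rose and 7 fell in MRM (medians of -0.447 and -0.283), among them the polarity protein VANGL1 (-1.04 ± 0.08 in MLM, -0.80 ± 0.08 in MRM). Of 16 receptors 2 rose and 4 fell in MLM, and 3 rose and 2 fell in MRM, with FZD1 higher in both (0.97 ± 0.12 and 1.99 ± 0.16). LRP5 was lower in both (-0.54 ± 0.11 and -0.60 ± 0.19), and RYK was lower in MLM (-0.66 ± 0.07).

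Of the other WNT ligands 6 were tested in HCC1954, of which 0 rose and 1 fell in MLM, and 3 rose and 1 fell in MRM, among them WNT3A (2.14 ± 0.64 in MRM, adjusted p = 0.0337). Of 7 WNT inhibitors 1 rose and 2 fell in MLM, and 2 rose and 3 fell in MRM. The inhibitor DKK1, which blocks LRP receptors, rose in both media (0.93 ± 0.30 and 1.71 ± 0.51), and RNF43 rose in MRM (0.47 ± 0.10). Of the same list KREMEN2 fell in both media (-0.93 ± 0.16 and -1.09 ± 0.15), and TPBG fell in MRM (-0.59 ± 0.07). Of 10 known targets of beta-catenin 2 rose and 1 fell in MLM, and 5 rose and 0 fell in MRM (medians of 0.0792 and 0.292), with TCF7 higher in both (1.66 ± 0.47 and 2.40 ± 0.48). These risers were not equal in the derivatives: WNT3A (1.57 ± 0.48), DKK1 (1.19 ± 0.26) and TCF7 (1.65 ± 0.09) were called higher in LCC2 than in LCC1. In that comparison 53.3% of all genes tested were called. The counts called among receptors in both media, transducers in MRM, and inhibitors, targets and other ligands in MLM are near or under the share of all genes called. RNF43 and ZNRF3 stand in both the inhibitor and the target list, so RNF43 counts in each.

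In H2087 LCC cells against parental cells, 13.5% of all genes were called in MLM and 14.4% in MRM. In MLM 2 of 16 receptors rose and 0 fell, led by FZD2 (0.78 ± 0.21), and of 20 transducers 4 rose and 1 fell, with DVL3 (0.76 ± 0.12) and CTNNB1, the gene of beta-catenin, (0.56 ± 0.12) higher and DVL2 (-0.62 ± 0.07) lower. Of 7 targets of beta-catenin 0 rose and 2 fell in MLM, among them MYC (-0.48 ± 0.09), and 1 rose and 0 fell in MRM, which was CCND1 (1.27 ± 0.17). In MRM 2 of 13 carriers and proteoglycans rose and 0 fell, among them the glypican GPC4 (3.17 ± 0.45). Of 7 inhibitors 2 rose and 0 fell, among them DKK1 (5.26 ± 1.16). Of 20 transducers 2 rose and 0 fell, among them the polarity gene PRICKLE1 (4.30 ± 0.33). The counts for receptors in MLM and for carriers, transducers and targets in MRM are near or under the share of all genes called. Of 2 other WNT ligands tested 0 were called in either medium. Between the media, 11 of 16 receptors fell in MLM in the derivatives and 0 rose (median -0.63 against 0.015 over all genes), where 18.9% of all genes fell and 18.5% rose. In the parental cells 6 of 16 fell and 1 rose (median -0.446 against 0.039), where 17.9% of all genes fell and 20.1% rose. FZD2 was the named receptor that fell in both (-1.27 ± 0.16 and -2.04 ± 0.28).

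For likeness, the called member with the largest MLM difference and a line mean of at least 100 was set beside all genes of that mean. Across the 14 HCC1954 libraries the genes whose log2 values followed WNT5A most closely among 11696 were STS, MPP7 and KCNS3, with Pearson r of 0.993, 0.991 and 0.991. Across the 16 H2087 libraries those closest to WNT10B among 10571 were SRD5A3, DPH1 and FBXO44, with r of 0.935, 0.916 and 0.915. The libraries share their groups, so any gene with the same difference between LCC and parental cells scores high.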

How the data were processed

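RNA of parental and LCC cells was sequenced, and 30 of the 31 RNA libraries in the labels have a column in the tables. Tools listed in the submitters' processing notes, without roles, are HTSeq 0.6.1p1, Bowtie2 2.2.4 and DESeq2 1.8.1, and builds GRCh37 and hg19. The deposited values, named normalised counts, are a signal with 1 column per library per the file headers, and by their steps they are read counts per gene divided by a size factor. Multiples of the smallest step gave whole reads for 100% of values (tolerance 0.01 reads), and the recovered size factors matched median-of-ratios factors over both media of a line (largest relative difference 4.42e-11 in H2087 and 4.45e-11 in HCC1954), so media were compared within a line but lines were not.

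Values were tested as log2(value + 1) in limma 3.58.1, two-sided, with a trended prior variance and Benjamini-Hochberg adjustment, over all genes with a line mean of at least 10, which were 12535 genes in H2087 and 15397 in HCC1954. LCC and parental cells were fitted within each medium, and the media, their difference and the derivatives within each line. Fold changes on this scale understate the change of low genes. edgeR 4.0.16 and DESeq2 1.42.0 (R 4.3.3) on the recovered reads, other scalings, filters and pseudocounts, and leaving out each library were alternatives. The main limma fit was run on simulated counts with planted changes as a check of the code. Those counts held no differences between derivatives and no library standing apart, so the check does not cover these.

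The members and gene lists were chosen with earlier results of these data known. Genes outside the members were named by rule: from each list at most the 2 called genes per direction with the largest change and a line mean of at least 100. LCC libraries of 1 derivative pair across the media by their label, and their deviations correlated at 0.411 to 0.756 in H2087 and 0.507 to 0.698 in HCC1954. Parental libraries share only a number. Intervals cover counting error only.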

Additional observations from a re-analysis of the deposited data

Results flagged for a closer look

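Of 31 sets, each 1 member's values in 1 LCC group of 4 or 6 libraries, 3 held a value far from the others, where chance gives about 1 in 20. WNT3 was at 58.71 in H2087 LCC2 in MRM, against 28.7 to 39.2 in the other derivatives. WNT4 was at 62.51 in HCC1954 LCC1 library 2 in MRM, a library that also stood apart across all genes, against 142 to 146 in the other LCC libraries. WNT5B was at 3.018 in H2087 LCC1 in MLM, which is a few reads.

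The LCC effect on WNT5B in H2087 had a fitted difference between the media of -6.34 (log2 scale, MLM minus MRM) that limma called and edgeR (adjusted p = 0.9999) and DESeq2 (adjusted p = 0.4661) did not. Every MRM library had 0 reads and WNT5B entered the test through the parental MLM libraries alone, so the value supports no difference.

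Some members had groups that did not overlap in either line and that differed in opposite directions, and the difference between the lines was not tested. They were picked for this, and how many of all genes meet it was not counted. With 2 parental libraries per medium in H2087 this is a weak criterion. Between the media there, 2 of 7 members lay above, 4 lay below and 1 overlapped. In MRM the LCC minus parental difference was 3.16 in H2087 and -3.67 in HCC1954 for WNT5A, 0.88 and -0.80 for WNT7B, and -2.17 and 0.98 for WNT10B. In parental cells the MLM minus MRM difference was 4.18 in H2087 and -0.65 in HCC1954 for WNT5A, -0.83 and 0.81 for WNT10B, and -1.06 and 0.97 for WLS. Of these, WNT5A in H2087, WNT5A between the media in HCC1954 and WNT10B between the media in H2087 did not pass limma's test within their line.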

How the results depend on the processing

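Over 88 member results and 1444 alternatives, 1308 kept their direction and their side of the threshold, 73 lost and 27 gained a call, and 36 changed sign, none of them for a called value; where no value shows it, the cause was not tested. The count of members called in H2087 MLM (2) was 1 with a line mean of at least 50 and 1 to 3 without 1 library. In H2087 MRM (2) it was 1 with no filter and 0 to 3 without 1 library. For the media in H2087 parental cells (2) it was 1 with a mean of at least 50. For the difference of LCC effects in H2087 (1) it was 2 with no filter, 0 with a mean of at least 50, in edgeR and in DESeq2, and 1 to 2 without 1 library. In HCC1954 MRM (7) it was 4 to 8 without 1 library. For the media in HCC1954 parental cells (6) it was 3 with no filter or library totals and 2 to 5 without 1 library. For the media in HCC1954 LCC cells (1) it was 0 with no filter, library totals, edgeR or derivative means, and 0 to 3 without 1 library. For the difference of LCC effects in HCC1954 (0) it was 1 in DESeq2 and 0 without any 1 library, and between LCC2 and LCC1 (3) it was 3 to 5. With the replicate number as a block, 5 of 7 members were called between the media in H2087 parental cells, where 6774 of 12535 genes tested were called. That block called 3 members for the H2087 difference and 2 between the media in HCC1954 LCC cells. The parental libraries share only a number, however (correlations of 0.051 in H2087 and 0.018 to 0.116 in HCC1954). With the derivative alone as a block, a fit chosen after seeing the data, 3 members were called for the H2087 difference, 2 between the media in HCC1954 LCC cells and 1 for the HCC1954 difference. Signs changed in H2087 MLM for WNT5A (0.24 in edgeR, 0.25 in DESeq2), in H2087 LCC cells between the media for WNT3 (0.06 with library totals) and PORCN (0.08 with library totals, 0.01 in edgeR, 0.02 in DESeq2), in HCC1954 LCC cells between the media for WNT3 (-0.13 in edgeR, -0.12 in DESeq2) and between LCC2 and LCC1 for PORCN (0.04 with library totals). Without 1 library they changed for WLS in H2087 MRM (-0.17 to 0.01), WNT7B between the media in H2087 parental cells (-0.07 to 0.12), WNT5A (-0.28 to 0.88), WNT3 (-0.10 to 0.10) and PORCN (-0.09 to 0.14) between the media in H2087 LCC cells, WNT3 in HCC1954 MLM (-0.14 to 0.47), MRM (-0.09 to 0.58), between the media in parental (-0.06 to 0.54) and LCC cells (-0.18 to 0.50) and in the difference of LCC effects (-0.45 to 0.23), WLS between the media in HCC1954 LCC cells (-0.16 to 0.10), and WNT5A (-0.04 to 0.42) and WNT5B (-1.23 to 0.42) between LCC2 and LCC1. Counts over all genes moved by more than 1.5 times in H2087 MLM (1687, DESeq2 2885, 120 without parental library 2), H2087 MRM (1807, 1 fit over both media 2783, 140 without parental library 1), the media in H2087 parental cells (4761, 2851 without MRM parental library 1), the H2087 difference (1344, replicate block 3426, derivative block 3924, 426 without MLM parental library 1), HCC1954 MLM (5535, derivative means 2587, 3626 without parental library 1), HCC1954 MRM (5951, 3663 without parental library 1), the media in HCC1954 parental cells (3784, replicate block 5816, 2013 without MRM parental library 3), the media in HCC1954 LCC cells (3546, derivative means 740, replicate block 5720, derivative block 6557) and the HCC1954 difference (24, no filter 13, edgeR 12, DESeq2 307, derivative means 0, replicate block 116, derivative block 626, 0 to 50 without 1 library). Scaling by library totals moved the share of calls that were higher from 36.4% to 22.7% in H2087 MLM, 60.4% to 41% in H2087 MRM, 49.5% to 66.2% between the media in H2087 LCC cells, 48.4% to 61.5% in HCC1954 MLM, 50.1% to 64.1% in HCC1954 MRM, 54.7% to 42.6% and 52.7% to 37.1% between the media in HCC1954 parental and LCC cells, and 49.3% to 66.3% between LCC2 and LCC1. It moved the median of all genes by 0.11, 0.13 and 0.14 in HCC1954 MLM, HCC1954 MRM and LCC2 against LCC1. In H2087 MRM, the shallowest libraries, a count of 0 reads does not exclude low WNT5B RNA.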
